A study of Mus musculus with 2 samples.

Results

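The 10 genes described here, Irf8, Irf4, Batf3, Zbtb46, Flt3, Itgax, Itgam, Csf1r, Cx3cr1 and Xcr1, are genes by which dendritic cells and macrophages are recognised, and their chromatin was examined in whole mouse thymus. They were chosen by name, out of 21938 protein-coding genes of GENCODE M21 on the mm10 genome, and each was taken with its gene body and 100 kb on either side. DNase I-seq, which maps chromatin open to cutting by DNase I, was made from the thymus of male B6CASTF1/J mice aged 2 months, first-generation offspring of C57BL/6J and CAST/EiJ parents. There is 1 group of 2 replicates with no treatment, and no other group is compared. The labels number an animal for each replicate but give both the same donor identifier. With 2 samples of 1 group, values are given for each replicate and as mean ± SD (n = 2), the SD covers the spread between these samples only, and no test between samples was possible.

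Dendritic cells and macrophages are a small minority among the thymocytes that fill the thymus. Irf8, Batf3, Irf4 and Zbtb46 encode transcription factors of the dendritic cell lineages: Irf8 and Batf3 act together in cross-presenting conventional dendritic cells (type 1, marked by Xcr1), Irf4 acts in type 2 conventional dendritic cells and in activated lymphocytes, and Zbtb46 marks conventional dendritic cells among mature immune cells. Flt3 and Csf1r are the growth factor receptors of early progenitors and dendritic cells and of macrophages, Itgax (CD11c) and Itgam (CD11b) are integrin alpha chains, and Cx3cr1 and Xcr1 are chemokine receptors of monocytes and macrophages and of type 1 dendritic cells. In a whole tissue, fewer cells of a type and less open chromatin per cell cannot be told apart.

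The sequences below are those on which the promoter and distal results turn: 3 of the promoters open in both replicates, and, among the distal regions of at most 300 bp outside untranslated exons, the one with the highest mean score nearest to each of Irf8, Batf3, Flt3, Itgam, Cx3cr1 and Xcr1. They are GRCm38.p6 (mm10) plus strand, 5′ to 3′, and so carry the C57BL/6J bases and not those of CAST/EiJ. Capitals mark bases inside a footprint, a short stretch protected from DNase I, that the authors called in both replicates with at least 1 bp in common. Promoter sequences stop at the gene's 5′ end.
Irf8 promoter (chr8:120736161-120736357): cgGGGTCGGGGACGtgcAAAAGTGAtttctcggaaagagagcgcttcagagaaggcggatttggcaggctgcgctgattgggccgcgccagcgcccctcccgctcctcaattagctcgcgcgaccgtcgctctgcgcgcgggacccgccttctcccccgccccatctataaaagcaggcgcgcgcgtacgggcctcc
Irf4 promoter (chr13:30749041-30749225): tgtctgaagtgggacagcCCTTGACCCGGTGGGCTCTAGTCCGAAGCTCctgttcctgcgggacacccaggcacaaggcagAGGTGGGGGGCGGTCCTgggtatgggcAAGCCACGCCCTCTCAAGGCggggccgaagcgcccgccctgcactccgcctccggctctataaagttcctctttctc
Itgam promoter (chr7:128062547-128062639): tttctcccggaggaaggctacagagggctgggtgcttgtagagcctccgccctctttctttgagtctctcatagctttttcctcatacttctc
Irf8 distal region (chr8:120796361-120796560): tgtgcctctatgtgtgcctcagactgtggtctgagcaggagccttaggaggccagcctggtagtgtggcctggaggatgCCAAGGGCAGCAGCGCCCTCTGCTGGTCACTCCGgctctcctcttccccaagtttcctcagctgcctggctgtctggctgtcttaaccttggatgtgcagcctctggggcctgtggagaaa
Batf3 distal region (chr1:191126021-191126240): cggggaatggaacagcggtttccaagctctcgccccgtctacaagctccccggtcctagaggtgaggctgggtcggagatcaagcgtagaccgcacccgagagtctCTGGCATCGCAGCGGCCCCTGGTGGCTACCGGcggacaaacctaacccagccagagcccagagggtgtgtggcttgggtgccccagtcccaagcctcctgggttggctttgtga
Flt3 intronic region (chr5:147366461-147366700): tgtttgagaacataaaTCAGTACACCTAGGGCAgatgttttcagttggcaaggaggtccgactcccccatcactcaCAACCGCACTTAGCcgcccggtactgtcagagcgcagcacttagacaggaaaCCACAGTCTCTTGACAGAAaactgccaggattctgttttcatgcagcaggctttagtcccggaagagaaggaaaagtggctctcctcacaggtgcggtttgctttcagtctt
Itgam upstream region (chr7:128058641-128058920): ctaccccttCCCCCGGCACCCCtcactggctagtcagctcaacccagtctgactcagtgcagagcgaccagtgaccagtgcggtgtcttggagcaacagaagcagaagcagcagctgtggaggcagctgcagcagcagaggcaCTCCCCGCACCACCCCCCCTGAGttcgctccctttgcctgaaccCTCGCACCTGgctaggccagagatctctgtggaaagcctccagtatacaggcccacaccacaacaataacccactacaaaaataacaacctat
Cx3cr1 upstream region (chr9:120073241-120073460): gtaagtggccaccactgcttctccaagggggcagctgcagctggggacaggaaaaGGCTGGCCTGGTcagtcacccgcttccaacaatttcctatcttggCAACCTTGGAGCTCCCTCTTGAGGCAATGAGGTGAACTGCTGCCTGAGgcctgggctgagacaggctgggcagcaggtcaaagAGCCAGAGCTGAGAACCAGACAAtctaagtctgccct
Xcr1 upstream region (chr9:123872121-123872380): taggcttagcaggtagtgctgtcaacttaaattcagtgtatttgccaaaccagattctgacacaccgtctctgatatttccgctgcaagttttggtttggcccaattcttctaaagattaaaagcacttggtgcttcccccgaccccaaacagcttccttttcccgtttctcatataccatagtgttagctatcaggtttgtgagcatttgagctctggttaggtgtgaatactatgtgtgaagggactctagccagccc

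Shared footprints covered 10.2% of the Irf8 promoter stretch shown and 36.8% of that of Irf4. The Itgam stretch, up to the 5′ end, and the Xcr1 upstream region held none. Of the 11 motifs searched on both strands, none was found in the 3 promoter stretches. In the distal sequences, a CTCF match overlapped the footprint of the Irf8 region and a RUNX match (TGTGGTT) overlapped a footprint of the Flt3 region in part. An overlap of 1 bp or more was counted here and in the counts that follow. Matches that overlapped no shared footprint were an ETS-IRF composite (GGAANNGAA) in the Batf3 and Flt3 regions, AP-1/BATF (TGANTCA) and E-box (CAGCTG) in the Itgam region, an E-box in the Irf8 and the Cx3cr1 regions, and C/EBP (TTGCNNAA) and IRF (GAAANNGAA) in the Xcr1 region. A match is a description of letters and does not show that a factor was bound.

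The files of replicate 1 and replicate 2 listed 63832 and 67929 strict peaks, 91754 and 100264 looser peaks, and 291716 and 295617 footprints. Every strict peak carries the authors' signal score, a whole multiple of 0.00741 in replicate 1 and 0.00608 in replicate 2, and the median peak held 213 and 226 such steps. The depth of sequencing is unknown. Strict peaks that overlapped between replicates by at least 1 bp formed 51709 shared regions, in which the log2 score of replicate 2 minus that of replicate 1 had a median of -0.22 and an SD of 0.46. All 12 thymocyte genes listed (among them Gata3, Lck and Bcl11b) had an open promoter in both replicates, against 59.0% of all protein-coding genes. The list was chosen with earlier results of these data known, so it is no independent check of the tissue label.

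The 3 highest promoters among the 10 were those of the transcription factor genes Irf8, Irf4 and Zbtb46. A promoter was counted as accessible when both replicates had a strict peak no more than 1000 bp from any transcription start site (TSS) in the annotation, and its value is the highest such score. Irf8, Irf4, Zbtb46 and Itgam met this, 4 of 10 genes, against 59.0% of all protein-coding genes. With the looser lists 6 of 10 did, adding Batf3 and Itgax, against 62.7% of all genes. Csf1r, Cx3cr1 and Xcr1 had no peak of either kind and no stretch in the deposited false discovery rate (FDR) tracks, which list stretches under 0.05, in either replicate. These 3 of 10 compare with 32.2% of all genes. The count from the looser lists and the count without any listed stretch are close to the shares of all genes and do not set the 10 genes apart.

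**Figure D1:**
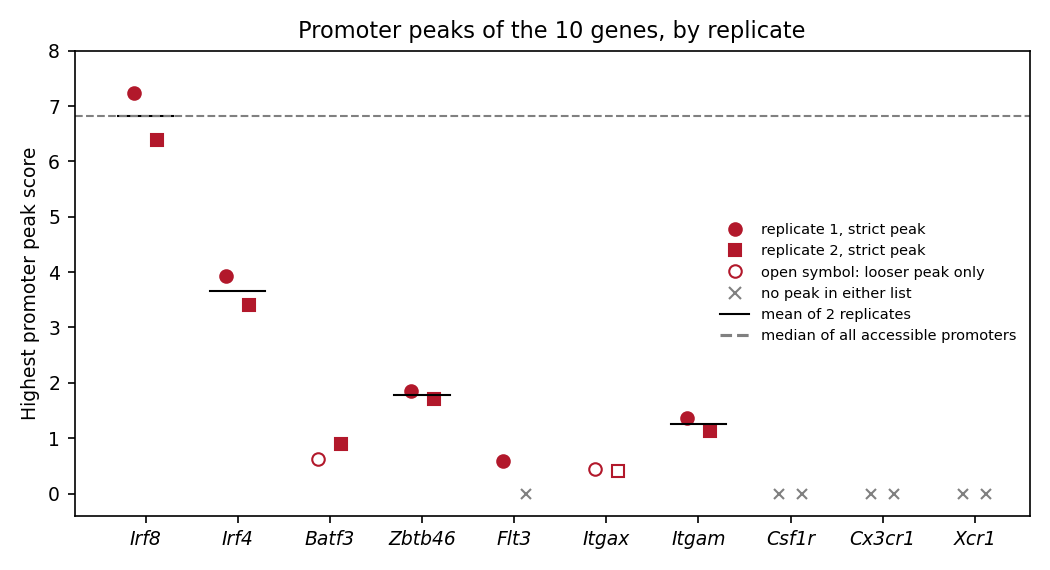
Highest promoter peak score of each of the 10 genes (vertical axis, the authors' signal score), by replicate, with the mean of the 2 replicates where both are strict and a dashed line at 6.83, the median of all accessible promoters. Irf8 lies at that line, Irf4, Zbtb46 and Itgam lie below it, and crosses at 0 mark a promoter with no peak in either list.

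Irf8, on chromosome 8 (120736358-120756694, plus strand), encodes a factor needed by type 1 dendritic cells and monocytes and also used by B cells. Its promoter scored 7.24 in replicate 1 and 6.39 in replicate 2, 6.82 ± 0.606. Both values lay close to the median accessible promoter, at percentile 49.9 of all accessible promoters, and the lowest FDR was 2.79e-43 and 1.05e-42. Irf4, on chromosome 13 (30749226-30766976, plus strand), scored 3.93 and 3.40, 3.66 ± 0.374, at percentile 27.2. It stood below Irf8 in both replicates, and the values of the 2 genes did not overlap.

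Zbtb46, on chromosome 2 (181387762-181459426, minus strand), scored 1.84 and 1.71, 1.78 ± 0.0966, at percentile 13.7. Its peak straddled the gene's 5′ end, and a pair of weaker shared regions followed inside the first kilobase, at +0.315 kb (0.822 and 0.407) and +0.692 kb (0.622 and 0.438). Positions are distances of a region's centre from the gene's 5′ end in the direction of transcription. Itgam, on chromosome 7 (128062640-128118491, plus strand), scored 1.37 and 1.13, 1.25 ± 0.170, at percentile 8.89. The lowest score of Zbtb46 was above the highest of Itgam, and both genes were far below the median accessible promoter.

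Batf3, Flt3 and Itgax were at the edge of detection. Batf3, on chromosome 1 (191097847-191108945, plus strand), encodes the partner of Irf8 in type 1 dendritic cells and had a strict promoter peak in replicate 2 only, of 0.899, with a looser peak of 0.622 and a lowest FDR of 0.00134 in replicate 1. Flt3, on chromosome 5 (147330741-147400489, minus strand), had a strict peak of 0.585 in replicate 1 with a lowest FDR of 5.92e-05 and nothing listed in replicate 2. Itgax, on chromosome 7 (128129547-128150657, plus strand), had looser peaks only, of 0.452 and 0.413, with lowest FDRs of 0.0182 and 0.0175. A promoter seen in 1 replicate or only in the looser lists is not resolved by these 2 replicates. With replicate 1 left out, 5 of 10 promoters were accessible (Batf3 was added), and with replicate 2 left out, 5 of 10 (Flt3 was added).

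Promoters differ in CpG content, which goes with openness across all genes. Within 500 bp either side of the 5′ end, Zbtb46 held 134 CpGs, Irf8 69, Flt3 66 and Batf3 60, and among genes of similar number, in 1 of 10 equal classes, 91.1%, 90.2%, 90.2% and 86.4% of promoters were accessible. Irf8 and Zbtb46 went with their class, while Flt3 and Batf3, without a strict peak in both replicates, did not. Itgam held 13 CpGs, Xcr1 11 and Csf1r 10, in a class of which 25.7% were accessible, and Itgax and Cx3cr1 held 15 each, in a class of which 38.4% were. Itgam was the single accessible promoter among these 5 genes. Irf4, with 30, was in a class of which 63.0% were accessible. The part of CpG content in the promoter values was not tested.

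Most of the 10 genes, but not all, had more open regions per 100 kb of window than the median gene. The windows of the 10 genes held 143 shared regions, counting once the 11 that lie in the windows of both Itgam and its neighbour Itgax. The number per 100 kb of window had a median of 6.70 over the 10 genes and 3.75 over all genes (quartiles 1.34 and 6.76), and 9 of 10 genes were above the median gene. Cx3cr1 had the highest density, 8.15, then Xcr1 with 7.63, Itgam with 7.43, Irf8 with 7.26, Itgax with 6.78 and Zbtb46 with 6.63. Flt3 had 5.56, Batf3 4.26 and Irf4 4.13, and Csf1r, with 3.02, was the gene below the median. With 50 kb flanks 6 of 10 genes were above the median gene.

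**Figure D2:**
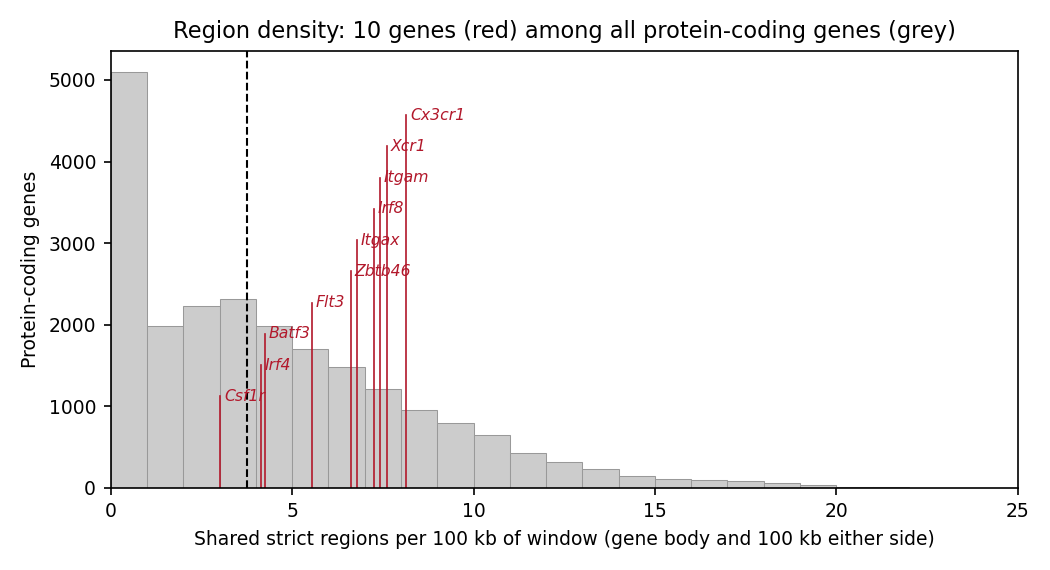
Number of protein-coding genes (vertical axis, grey bars) by shared strict regions per 100 kb of window (horizontal axis), with the 10 genes as red lines whose heights serve only to separate the names, and the median gene at 3.75 as a dashed line. Of the 10 genes, Csf1r lies left of the dashed line at 3.02 and Cx3cr1 farthest right at 8.15.

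By position, many of these regions belonged to other genes. Of the 143, 49 (34.3%) lay at the promoter of another gene and 59 (41.3%) were distal with the TSS of another gene nearest. The TSS of one of the 10 genes was nearest to 35 (24.5%), made up of 7 promoter regions and 28 distal regions. The share of a window's regions at another gene's promoter had a median of 32.5% over the 10 genes and 35.3% over all genes, and the regions nearest to the gene's own TSS had a median number of 2.5 and 1. At least 1 such region was found for 8 of 10 genes, against 69.0% of all genes, and at least 3 for 5 of 10 (Irf8, Irf4, Zbtb46, Flt3 and Itgam), against 31.6%. Itgax and Csf1r had none. The highest region of a window by mean score was the gene's own promoter in 1 case, Irf4, and the promoter of a neighbour in 7. Examples were Dnajc5 in the Zbtb46 window (17.1 and 13.2) and Flvcr1 in the Batf3 window (16.5 and 14.3). The same was not counted over all genes, so it is not shown to be particular to the 10. Over the genome, promoter regions had higher median scores (4.12 and 3.12) than distal ones (1.48 and 1.42).

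**Figure D3:**
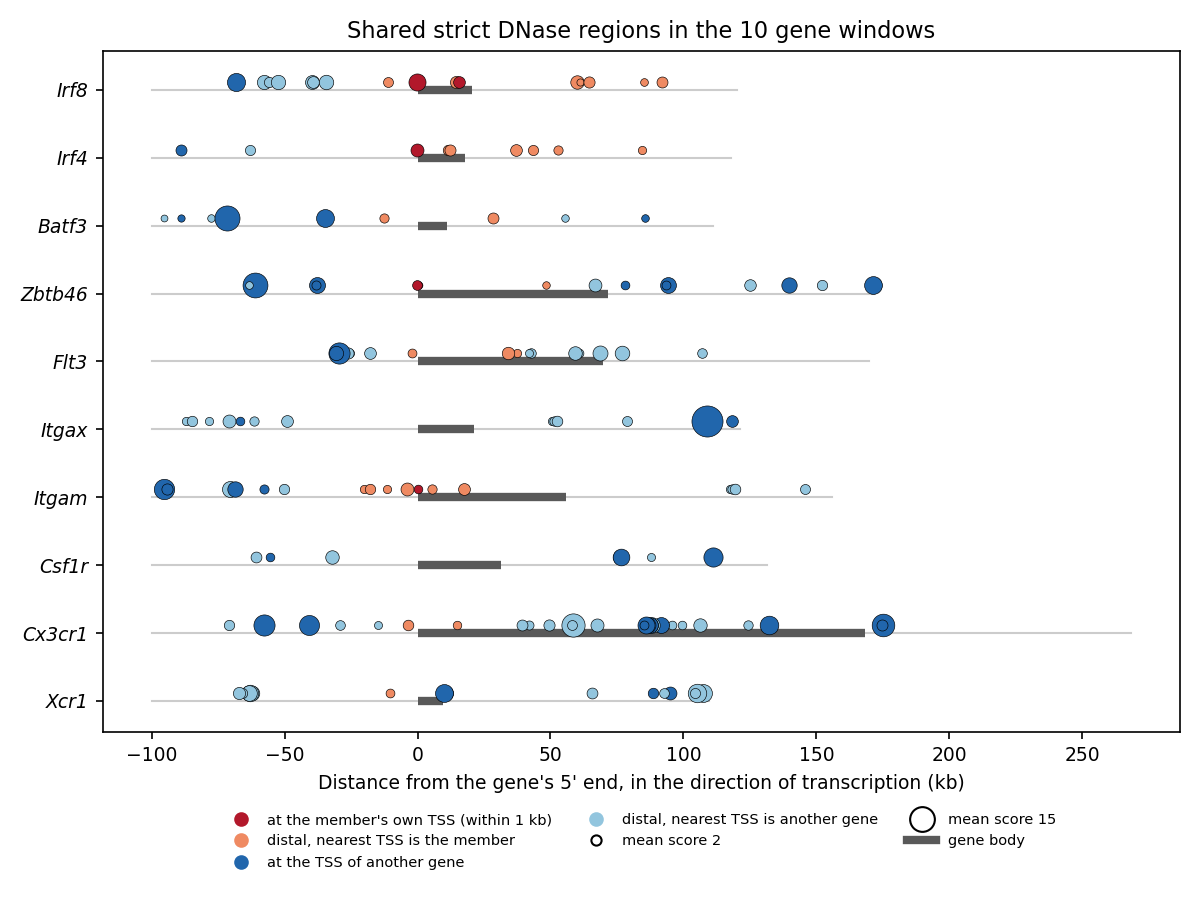
Shared strict regions in the 10 windows, by distance of the region's centre from the gene's 5′ end in the direction of transcription (horizontal axis, kb), with marker area growing with the mean score and colour giving the nearest TSS. Regions of the genes themselves (red and orange, 35 in all) cluster at Irf8, Irf4 and Itgam, and the largest markers are blue, at the TSSs of other genes.

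The 28 distal regions nearest to the 10 genes had median scores of 2.20 (replicate 1) and 1.61 (replicate 2). Over the 31822 distal shared regions of the genome the medians were 1.48 and 1.42, so that the members' median was the higher in both replicates. Some of the 28 lay below the genome's medians, such as those at Irf8 +61.2 kb (0.704 and 0.608) and Zbtb46 +48.2 kb (0.793 and 0.796). The 7 regions at their own promoters had medians of 1.84 and 1.71, below the genome's promoter regions, with 4.12 and 3.12. They came from 4 genes, with 3 at Zbtb46, 2 at Irf8 and 1 each at Irf4 and Itgam. The medians are the scores of the Zbtb46 promoter peak. No test was made of either difference.

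Irf8 had the most regions of its own, 9 of the 16 in its window. Upstream, a region at -11.0 kb scored 2.45 and 1.28. Inside the gene, an intronic region at +14.5 kb scored 3.59 and 2.63, and another at +15.6 kb, close to the start of a short annotated transcript, scored 3.83 and 1.87. Beyond the gene lay a series of intergenic regions, of which that at +60.1 kb was the strongest, with 3.97 and 3.95, and those at +64.3 kb (2.55 and 2.53) and +92.1 kb (2.39 and 2.47) followed. These 3 were nearly equal between the replicates, while the region at +15.6 kb differed by -1.04 on the log2 scale.

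Farther upstream of Irf8, open regions at -57.7 kb (4.31 and 4.79), -52.6 kb (4.56 and 4.69), -39.8 kb (5.70 and 2.93) and -34.5 kb (5.53 and 3.90) had the TSS of Cox4i1, a subunit gene of cytochrome c oxidase, nearest. They scored above every distal region nearest to Irf8 in replicate 1. The promoter of Cox4i1 itself, at -68.2 kb, scored 8.54 and 6.93. Position alone does not show which gene a region acts on.

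The Irf8 enhancers described in dendritic cells and other myeloid cells carry names after their distance from the TSS, here -50, +32, +41 and +56 kb, taken from general knowledge of the locus. Within 2 kb of each of these 4 points neither replicate had a strict peak, a looser peak, a footprint or a listed FDR stretch. Over the genome, 10.1% of 4000 bp tiles in replicate 1 and 10.8% in replicate 2 held a listed stretch, so that most tiles of this size are empty. The nearest shared regions were at -52.6 kb, +15.6 kb and, for the last 2 points, +60.1 kb. Nothing open was thus listed within 2 kb of the named points in whole thymus, at a depth that is unknown. This rests on the 2 kb limit. Whether the regions at -52.6 kb (4.56 and 4.69) or +60.1 kb (3.97 and 3.95) are among the named enhancers was not tested.

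Irf4 differed in layout, since 7 of the 9 regions in its window were its own. Those within the gene, at +11.4 kb in an intron (2.90 and 1.37) and at +12.2 kb over an exon (3.23 and 1.73), were higher in replicate 1. Downstream regions lay at +37.2 kb (3.52 and 2.19), +43.3 kb (2.50 and 1.54), +52.8 kb (1.46 and 1.61) and +84.4 kb (1.09 and 1.09). None of them reached the promoter's own score in either replicate. The other 2 regions belonged to Dusp22, a phosphatase gene, with its promoter at -89.1 kb (2.95 and 1.96).

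Batf3 had 2 distal regions of its own among 9, at -12.7 kb (1.27 and 1.79) and +28.3 kb (2.16 and 2.72), both higher in replicate 2. The second is more open than the promoter, for which the strict score of replicate 2 was 0.899. Atf3, a related factor of the same protein family, lies in the window, and its promoter region at +85.7 kb scored 0.881 and 0.772. Zbtb46 had 1 distal region of its own, over an exon at +48.2 kb (0.793 and 0.796). A stronger intronic region of Zbtb46 at +66.6 kb (3.11 and 4.01) had the TSS of Lime1, a gene for a membrane adaptor of lymphocytes, nearest.

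The Flt3 promoter was at the edge of detection, and 7 shared regions lay within the gene body. Replicate values were 4.93 and 5.25 at +68.8 kb, 5.07 and 2.98 at +59.2 kb, and 3.76 and 2.89 at +33.9 kb. All 3 lay far above the single promoter score of 0.585. The other 4, from +37.2 to +60.7 kb, scored between 0.778 and 1.85. By distance to a TSS 2 of the 7 belonged to Flt3 itself, and the other 5 were nearer to Urad, a gene of urate breakdown that lies beyond the 3′ end of Flt3. Just upstream of the promoter a region at -2.23 kb scored 1.31 and 1.42. Csf1r, the other growth factor receptor, on chromosome 18 (61100598-61132149, plus strand), had no shared region within its body and none nearest to it. The closest open region upstream, at -32.0 kb (3.70 and 4.30), had Pdgfrb nearest, the gene of a related receptor tyrosine kinase, whose own promoter scored 1.30 and 1.20.

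The neighbouring integrin genes differed from each other. Itgam had 7 regions of its own, of which that at -3.86 kb was the strongest, with 4.05 and 3.19, above its promoter in both replicates. Within the gene, regions at +5.42 kb (1.50 and 1.62, intron) and +17.6 kb (3.12 and 2.72, exon) were open, and a region at -18.0 kb scored 2.30 and 1.95. Itgax, the CD11c gene by which dendritic cells are commonly gated, had no region in its body or nearest to it, although its window held 15. Those were 7 regions nearest to Itgam, 4 nearest to other genes at +50.8 to +78.8 kb, and regions at the promoters of Armc5, 9130023H24Rik and Tgfb1i1. The region near the TSS of 9130023H24Rik at +109 kb was the highest of all 10 windows (29.9 and 18.3). Downstream of Itgax, the regions at +50.8, +51.3 and +52.4 kb were nearest to Itgad, a further integrin alpha chain gene.

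The chemokine receptor genes lay in dense neighbourhoods and had no listed promoter peak. Cx3cr1, on chromosome 9 (119901616-120069879, minus strand), had 30 shared regions in its window and 21 in its body, but the body is long because of 1 annotated transcript that runs across Xirp1, Csrnp1, Ttc21a and Gorasp1. With the body of the 2 shorter transcripts (120048683-120069879), an alternative chosen after the data were seen, there were 26 regions, 11.8 per 100 kb. Its own were a region at -3.47 kb (2.24 and 2.18) and an intronic one at +14.8 kb (1.21 and 1.17). Both were nearly equal between replicates. The highest in the window by mean score, at +58.6 kb (15.8 and 10.6), had Xirp1 nearest, and next on the other side was Ccr8, a chemokine receptor of T cells, with regions at -14.8 kb (1.03 and 0.936) and -29.0 kb (1.67 and 1.82).

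Xcr1, also on chromosome 9 (123852315-123862029, minus strand), sits among further chemokine receptor genes. It had 1 region of its own, at -10.2 kb (1.19 and 1.48), without a shared footprint. Around it, regions at +105 kb (10.0 and 6.21) and +107 kb (8.90 and 6.04) were nearest to Ccr9, the receptor by which thymocytes respond to Ccl25, whose promoter scored 4.47 and 2.75. A group of 6 regions from -61.6 to -67.1 kb, up to 6.93 and 5.76, had Ccr1 nearest. The promoter of Fyco1, which adjoins the 3′ end of Xcr1, scored 8.56 and 6.50, and was the highest region of the window in replicate 2, while that at +105 kb was in replicate 1.

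Replicate 1 was higher than replicate 2 in most regions of the 10 windows. Across the 143 regions, replicate 2 minus replicate 1 had a median of -0.24 and an SD of 0.40 on the log2 scale, close to -0.22 and 0.46 over all shared regions, and replicate 1 was higher in 110. The difference was more than 1 from the genome's median in 3 regions (2.10%), against 3.45% of all regions. Both distal regions of Batf3 were higher in replicate 2, and those of Irf4 from +11.4 to +43.3 kb were further below 0 than the median, from -0.68 to -1.08.

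**Figure D4:**
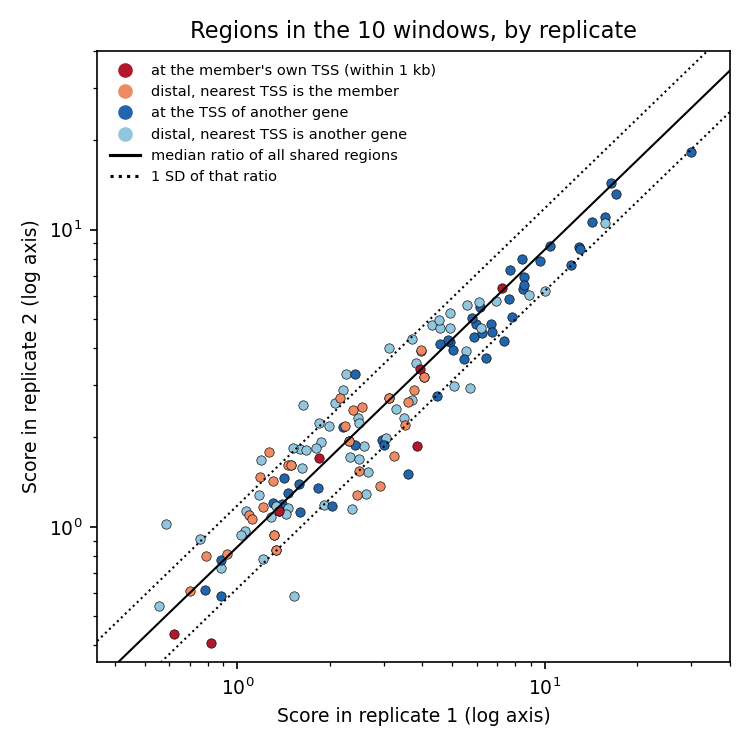
Score in replicate 2 (vertical log axis) against score in replicate 1 (horizontal log axis) for the regions of the 10 windows, coloured by nearest TSS, with a solid line at the median ratio of all shared regions and dotted lines at 1 SD of the log2 ratio. The points follow the line, 110 of 143 have a higher score in replicate 1, and the promoters of other genes (dark blue) reach the highest scores.

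Footprints shared by the replicates were found in all 10 windows. The windows held 437 footprints shared by the replicates, of which 352 (80.5%) lay in shared regions, against 83.1% over the genome. Per window the median was 45 over the 10 genes and 26 over all genes, and the range ran from 21 at Csf1r to 101 at Cx3cr1. Irf8 had 48, of which 91.7% were in shared regions, and Irf4 had 26, of which 76.9% were. Of the 28 distal regions nearest to the genes, 23 (82.1%) held a shared footprint, against 86.6% of the 31822 distal regions of the genome.

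Motif letters were counted in the 28 distal regions within 200 bp around the centre, on both strands, beside the share of all 31822 distal regions with the same letters. E-boxes (CAGCTG) were found in 9 (32.1%, against 19.6%). In 1 of the 9, at Irf8 +64.3 kb, a match overlapped a shared footprint, and 4.64% of all distal regions had such a match. The PU.1 sequence (GAGGAAGT), of the myeloid and B cell factor Spi1, was found in 3 (10.7%, against 3.73%), at Irf8 +14.5 kb, Flt3 +37.2 kb and, overlapping a shared footprint, Itgam +5.42 kb. The ETS-IRF composite was found in 3 (10.7%, against 6.48%), the IRF sequence in 2 (7.14%, against 5.59%) and AP-1/BATF in 2 (7.14%, against 6.21%). None of these matches overlapped a shared footprint. Of all distal regions, 1.64%, 1.30% and 1.19% had a match of these 3 kinds that overlapped one. With 2 or 3 matches each, the lack of an overlap does not set the 28 regions apart. These are few regions, and the letters of IRF and the ETS-IRF composite, and of PU.1 and ETS, can overlap.

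RUNX (TGTGGTT) was found in 2 of the 28 (7.14%, against 8.67%), at Batf3 -12.7 kb and Flt3 +33.9 kb, both overlapping shared footprints. CTCF was found in 2 (7.14%, against 13.1%), at Irf8 +60.1 kb and +85.2 kb, again overlapping footprints. C/EBP was found in 3 (10.7%, against 7.42%) and AGATAAG, the letters of GATA factors, in 1 (3.57%, against 2.18%), while ETS (CCGGAAGT, 0.880% of all distal regions) and TCF/LEF (CTTTGAA, 4.76%) were found in none. Over all 143 regions of the windows, 10 had a RUNX match (6.99%, against 6.49% of all 51709 shared regions) and 12 a CTCF match (8.39%, against 8.96%). The match overlapped a footprint in 9 of the 10 and 11 of the 12. Of all shared regions, 6.49% had a RUNX match, and 2.17% had one that overlapped a footprint. For CTCF these shares were 8.96% and 8.73%. Over the genome, nearly all regions with a CTCF match thus had one in a footprint, while a minority of those with a RUNX match did.

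Genes that work with the 10 were open to differing degrees. Of 12 ligands and partners, 9 (75%) had an accessible promoter, against 59.0% of all protein-coding genes. The highest were the AP-1 genes Jun (19.1 ± 3.74) and Junb (10.6 ± 2.22), whose products pair with Batf family factors. Next was Flt3l, the Flt3 ligand (8.17 ± 3.39). Csf2 had no strict promoter peak, and Cx3cl1, the ligand of Cx3cr1, had one in replicate 2 only (0.407). Itgb2, the beta chain shared by Itgam and Itgax, named after its value was seen, scored 6.34 ± 1.43. It was open where these 2 alpha chain genes were weak (Itgam) or not called in the strict lists (Itgax). Promoters of other alpha chain genes were not compared with it.

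Of 12 other genes of conventional dendritic cells, 8 (66.7%) had an accessible promoter, against 59.0% of all protein-coding genes. They were led by Id2 (12.2 ± 0.547), Notch2 (10.7 ± 1.90) and Ly75 (10.4 ± 0.709), with Cd209a and Clec10a without a peak. Plasmacytoid dendritic cell genes were accessible in 8 of 11 (72.7%), led by Tcf4 (7.80 ± 1.67), Bst2 (7.53 ± 0.848) and Ccr9 (3.61 ± 1.21), with Siglech and Spib without. Id2 and Ccr9 also act in T cells, and the other genes named were not checked for use in other cells of the thymus. An open promoter in these lists thus does not name the cell type it comes from. Activated dendritic cell genes were accessible in 5 of 10 (50%), led by Relb (8.58 ± 0.554), Ccr7 (4.64 ± 0.708) and Fscn1 (3.56 ± 0.869), without Ccl17 and Ccl22. These shares, each of few genes, lay on both sides of that of all genes and were not tested against it.

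Monocyte and macrophage genes were accessible in 8 of 20, among them Nr1h3 (7.44 ± 1.93) and Maf (5.61 ± 0.127), while Adgre1 (F4/80) and C1qa had no peak. Spi1, the gene of PU.1, named after its value was seen, scored 2.82 ± 0.379. Among other cell types of the tissue, 2 of 6 B cell genes (Ebf1 and Pax5), 0 of 6 granulocyte genes, 2 of 6 thymic epithelial genes (Aire and Epcam), 3 of 5 endothelial genes and 1 of 5 erythroid genes were accessible. The 10 genes, at 4 of 10, thus had the same share as the monocyte and macrophage list, below the 59.0% of all protein-coding genes. The thymocyte list, at 12 of 12, had the highest. The part of each cell type in these values was not tested.

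**Figure D5:**
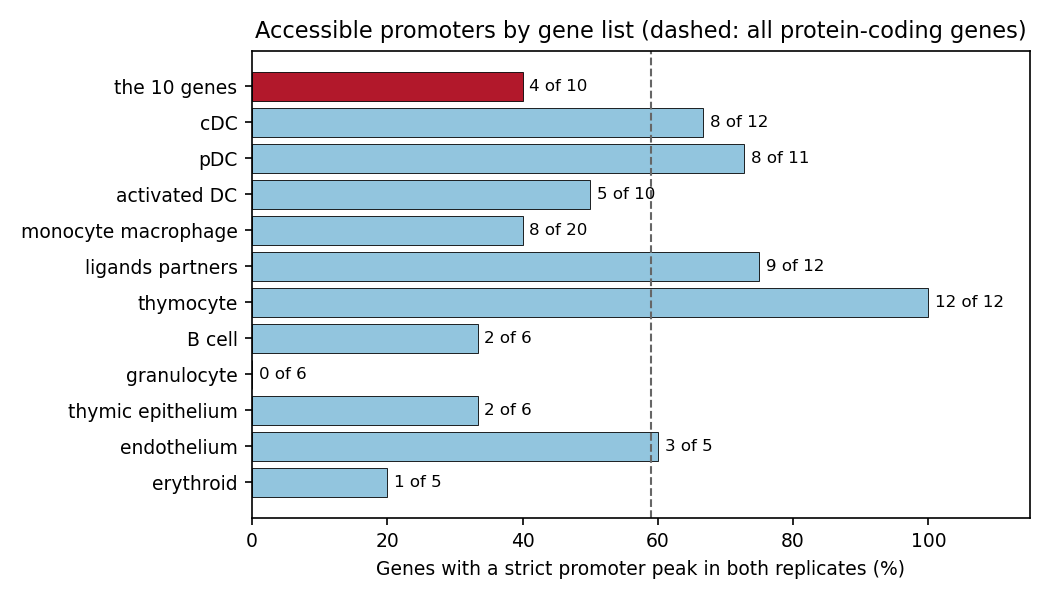
Percent of the genes of each list with a strict promoter peak in both replicates (horizontal axis, bars from 0), with the counts beside the bars and a dashed line at 59.0%, the share of all protein-coding genes; cDC and pDC are conventional and plasmacytoid dendritic cells. The 10 genes (4 of 10) and the monocyte and macrophage list (8 of 20) lie left of the line, and the thymocyte list (12 of 12) reaches the right end.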

How the data were processed

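DNase I-seq of thymus in 2 replicates of 1 group was analysed from interval files on mm10, which is the assembly per the labels. The peaks, called per sample, have a signal score in the deposited lists; the list with fewer entries, whose peaks reach an FDR of 0.001, is the strict one. The deposited FDR tracks hold a q-value (an adjusted p-value) for each stretch under 0.05. As deposited, every footprint has the value 0.01, so only positions were used. What aligner, peak caller, footprint tool and scale of the score were used is not given in the sources used here, nor is the depth. Reads of the CAST/EiJ and C57BL/6J genomes were not separated here. Overlapping strict entries of 1 list were joined, leaving 62230 and 66839 peaks, with the highest score kept. Regions and footprints were shared at an overlap of 1 bp or more. The annotation was GENCODE M21 and the sequence GRCm38.p6. A region belonged to the protein-coding gene with the nearest TSS. Percentiles and medians over all genes are descriptions, and no statistical test was run. The 10 genes and the 11 gene lists were chosen with earlier results of these data known. All 10 genes were named, with up to 5 of the highest regions per window, and in each list the 3 highest promoters and, by alphabet, the first 2 genes without a peak in both replicates; other regions and genes named were chosen after their values were seen. A gene and a sequence that these rules select are not reported here. The alternatives were each replicate left out, the looser lists, promoter windows of 500 and 2500 bp, the 5′ end only, 50% reciprocal overlap and 50 kb flanks; the shorter Cx3cr1 body and the alternatives for the lists were added after the data were seen. The counting steps were tested on simulated intervals. Python 3.11.15, numpy 2.4.6, pysam 0.24.0 and samtools 1.23.1 were used.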

Additional observations from a re-analysis of the deposited data

How the results depend on the processing

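The window size moved the counts of shared regions and footprints: with flanks of 50 kb the windows held 91 shared regions instead of 143 and 253 shared footprints instead of 437, as shorter windows must hold fewer. Taking 1 replicate alone, without the need for overlap, gave 809 and 832 footprints. With 50 kb flanks 6 of 10 genes, not 9, were above the median density, and the cause was not tested. Leaving out a replicate gave 169 to 182 regions, of which 42 to 48 were nearest to the 10 genes, and the looser lists gave 194 and 50. Accessible promoters numbered 5 without replicate 1, 5 without replicate 2, 6 with the looser lists, 5 with a window of 2500 bp, and 4 with 500 bp or the 5′ end only. The shorter Cx3cr1 body, added after the data were seen, gave 139 regions and 421 footprints. The named Irf8 enhancer points had 0 peaks within 2 kb in the strict and the looser lists. No paired analysis was possible because there is 1 group. The depth is unknown, and its part in the low scores of Batf3, Flt3 and Itgax was not tested.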
